A study of Homo sapiens with 16 samples.

Results

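The 10 genes MMP1, SPARC, TNC, VCAM1, ID1, PTGS2, EREG, CXCL1, ANGPTL4 and FSCN1 are known mediators of breast cancer spread to the lung from the MDA-MB-231 line. They were taken by name, with no threshold on a measured value, after the transcripts of the deposited tables had been matched to gene symbols. The tables list 10823 transcripts in either of them, 1 per gene by the study's methods. The MDA-LM2 and parental table (10799 transcripts) listed 8 of the 10 genes, and the table of the HNRNPC knockdown (8980 transcripts) listed 7. SPARC and VCAM1 were listed in neither table, and CXCL1 was listed only in the former. A symbol was found for 97.9% of the transcripts of each table, and every listed transcript had a value worth at least 5 read steps in every RNA library, so an unlisted gene has no level here.

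To reach the lung, a tumour cell must leave the breast through the matrix and the vessel wall, survive in the blood, cross the lung capillaries and restart growth among foreign cells. The products of these genes act at different points of that route. MMP1 is a secreted collagenase, TNC (tenascin C) and SPARC are matricellular proteins of the tumour stroma and the metastatic niche, and VCAM1 is a surface adhesion molecule that binds integrins on leukocytes. EREG (epiregulin) is a ligand of the epidermal growth factor receptor family, CXCL1 is a chemokine that recruits neutrophils and other myeloid cells, ANGPTL4 is a secreted protein that loosens endothelial junctions, and PTGS2 (COX-2) makes the prostaglandin precursor. ID1 blocks differentiation by sequestering basic helix-loop-helix transcription factors, and FSCN1 (fascin) bundles actin in the protrusions of migrating cells.

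Ribosome-protected footprints (RPF), the mRNA stretches that translating ribosomes shield from nuclease, and RNA of the same lysates were sequenced in 4 lines, 2 RPF and 2 RNA libraries for each line, described in the study's methods as biological duplicates. The parental line, MDA-MB-231, is a human breast cancer line known as triple negative and labelled poorly metastatic, and MDA-LM2, labelled highly metastatic, was derived from it by selection in mice for growth in the lung, so the pair is 1 lineage. The sgControl and sgHNRNPC lines are MDA-MB-231 cells that, by the study's methods, carry the dCas9-KRAB repressor and were selected with puromycin after delivery of a guide RNA. That guide was a control in sgControl and was directed at HNRNPC, a nuclear protein that binds runs of U, in sgHNRNPC. All were grown in high-glucose medium with serum to subconfluence. Values are normalised read counts per transcript, each table normalised by itself, so levels are compared within a table only. Translational efficiency (TE) is the RPF value over the RNA value of the same lysate.

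All 6 markers of the line, VIM, CD44, AXL, CAV1, MSN and ITGB1, were listed in every library. Of 6 markers that the line should lack or hold at a low level, ESR1, PGR and CDH1 were not listed, while ERBB2 (HER2) had RNA counts of 812 and 797 in parental cells, EPCAM of 46.5 and 39.97 and ELF3 of 48.7 and 53.96. The sums of those listed were 747 to 907 in the MDA-LM2 table and, without ELF3, 177 to 246 in the knockdown table. RNA totals were 7023013 to 8326052 normalised counts for MDA-LM2 and parental cells and 5415889 to 5559039 for the knockdown table, against 650736 to 679726 and 158011 to 167928 for RPF. HNRNPC itself had normalised RNA counts of 2162 and 2146 in sgControl and of 1147 and 1183 in sgHNRNPC, a log2 change of -0.89 ± 0.05 (standard error) with a limma adjusted p of 5.14e-28. Its RPF difference of -0.57 ± 0.19 (standard error) did not pass (limma adjusted p 0.467). In MDA-LM2 against parental cells, HNRNPC differed by -0.40 in RNA and -0.13 in RPF, and neither passed (limma adjusted p 0.0618 and 0.441). Of 7 fibroblast markers, 2 were listed in the MDA-LM2 table. COL1A1 was at 9.97 and 21.0 in parental and at 580 and 879 in MDA-LM2 cells, while PDGFRB was at 44.3 and 38.0 in parental and at 24.4 and 16 in MDA-LM2 cells. None of 4 blood markers was listed, KDR was the sole endothelial marker of 4 that was listed (32.1 and 46.0 in parental, 53.6 and 66.5 in MDA-LM2), and the part of such cells in the results was not tested.

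The sequences below show matches to the letters of known kinds of control element, in some of the genes whose RNA moved in MDA-LM2 cells. The first set is promoters, from 250 bases before to 50 bases after the start of the gene (RefSeq, GRCh38.p14), for 3 genes whose RNA was higher in MDA-LM2 cells and for ID1, whose RNA was lower. PTGS2 lies at chr1:186680374-186680673 (minus strand), EREG at chr4:74364895-74365194 (plus), CXCL1 at chr4:73869143-73869442 (plus) and ID1 at chr20:31605039-31605338 (plus). Capitals mark matches on either strand to a TATA box (TATAAA), the NF-kB consensus site and the core of the hypoxia response element (ACGTG or GCGTG). The AP-1 site (TGANTCA) was searched too.
PTGS2: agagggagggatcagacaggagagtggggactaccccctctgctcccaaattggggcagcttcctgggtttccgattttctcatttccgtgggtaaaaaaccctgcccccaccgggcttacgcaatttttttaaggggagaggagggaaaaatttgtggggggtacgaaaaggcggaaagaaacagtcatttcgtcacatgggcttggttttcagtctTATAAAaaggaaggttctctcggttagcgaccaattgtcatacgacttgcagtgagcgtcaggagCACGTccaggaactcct
EREG: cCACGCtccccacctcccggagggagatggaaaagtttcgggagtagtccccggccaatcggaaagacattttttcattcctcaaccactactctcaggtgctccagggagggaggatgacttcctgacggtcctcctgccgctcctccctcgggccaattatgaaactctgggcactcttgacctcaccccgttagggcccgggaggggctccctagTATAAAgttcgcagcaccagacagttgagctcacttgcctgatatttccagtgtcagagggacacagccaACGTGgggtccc
CXCL1: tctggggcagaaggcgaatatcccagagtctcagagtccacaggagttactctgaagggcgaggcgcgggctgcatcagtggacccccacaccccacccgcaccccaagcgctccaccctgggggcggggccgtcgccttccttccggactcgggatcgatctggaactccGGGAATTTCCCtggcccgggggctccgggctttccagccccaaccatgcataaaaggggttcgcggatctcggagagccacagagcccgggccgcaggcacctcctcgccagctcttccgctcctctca
ID1: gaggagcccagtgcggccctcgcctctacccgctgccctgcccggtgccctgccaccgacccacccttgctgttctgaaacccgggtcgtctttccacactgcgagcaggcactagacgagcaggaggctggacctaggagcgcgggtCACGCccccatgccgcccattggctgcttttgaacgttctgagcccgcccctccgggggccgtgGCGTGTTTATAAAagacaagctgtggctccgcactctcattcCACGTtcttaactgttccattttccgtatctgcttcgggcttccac
The TATAAA letters stood between 33 and 24 bases before the start in PTGS2, EREG, ID1, ANGPTL4 and VCAM1. In ID1 and VCAM1 this match overlapped another on the opposite strand, and VCAM1 held a further match farther upstream. Of 35116 promoters of this length, 11.5% hold these letters. The NF-kB consensus was found in CXCL1, from 79 to 69 bases before the start with overlapping matches on both strands, and in VCAM1, from 62 to 53 bases before it, against 11.3% of promoters. The hypoxia core was present in ID1 (3 matches), EREG (2), PTGS2 (1), ANGPTL4 (1) and TNC (1), in a background of 48.4%. No AP-1 match was found in the 8 promoters searched (background 7.71%), and MMP1 and FSCN1 had no entry. These matches are letters in a window, not sites shown to be used. A site that departs from the searched letters is not marked, so a promoter without a match may still hold one.

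The second set is from the 3′ UTR of the listed transcripts (GENCODE version 44, hg38), where U-rich letters matter because HNRNPC binds runs of U and because AUUUA repeats are known to shorten the life of cytokine and growth factor mRNAs. A C followed by 6 U, in capitals, was found in 3 of the 8 listed genes: TNC (chr9:115020716-115020742, minus strand, shown, and another), EREG (chr4:74385555-74385581, plus strand, shown, and another) and PTGS2 (chr1:186673364-186673390, minus strand). Of the annotated 3′ UTRs of the MDA-LM2 table, 42.9% hold it.
TNC: gaagccauccCUUUUUUuacauuucau
EREG: cacaauguucCUUUUUUguauauuaca
PTGS2: uugaagcaaaCUUUUUUuuauccuugu
AUUUA, also in capitals, occurred 22 times in the 3′ UTR of PTGS2, 20 times in that of EREG, 6 times in that of CXCL1, 3 times in MMP1, 2 times in TNC and 1 time in ID1, and was absent from ANGPTL4 and FSCN1. It is common, as 71.5% of the 3′ UTRs hold at least 1. The densest stretches of PTGS2 (chr1:186674323-186674352, minus strand), CXCL1 (chr4:73870665-73870694, plus strand) and EREG (chr4:74387365-74387394, plus strand) held 3 copies each.
PTGS2 repeats: aagucuaaugaucauAUUUAUUUAUUUAua
CXCL1 repeats: cuuaggagaagucuucuAUUUAUUUAUUUA
EREG repeats: aauccAUUUAuuucAUUUAcaaaagAUUUA

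The first question was how cells selected for lung colonisation differ in these genes from the cells they came from. limma was run on log2(value + 1) for the 8393 transcripts whose mean reached 10 in RPF and also in RNA, and those with a Benjamini-Hochberg adjusted p under 0.05 across this set were called. Of the 10 genes, 7 were tested. RNA of MMP1, TNC, PTGS2, EREG and FSCN1 was higher in MDA-LM2 cells and RNA of ID1 was lower, which makes 5 higher and 1 lower of 7, where 5.8% of all tested transcripts were called higher and 9.44% lower. RPF gave the same 5 higher and the same 1 lower, against 5.0% and 7.03%. MMP1 and PTGS2 had parental RPF means of 7.60 and 5.19, below 10, and so entered the test through their MDA-LM2 libraries alone. The median log2 change of the 7 was 1.15 for RNA and 0.97 for RPF, beside -0.02 and -0.01 over all transcripts tested. The genes were chosen as known mediators of lung spread from this same lineage. The counts and medians thus describe them and are no independent test.

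The direction of the background depended on the scaling. With libraries rescaled to equal totals, the median RNA change of all tested transcripts moved from -0.02 to 0.15, and the share of RNA calls that were higher moved from 38.1% to 66.6% (RPF from 41.6% to 54.3%). The RNA and RPF changes of the 7 genes had the same sign under each scaling tried. In bulk RNA, a change in the number of cells that express a gene and a change in its RNA per cell cannot be told apart.

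**Figure D1:**
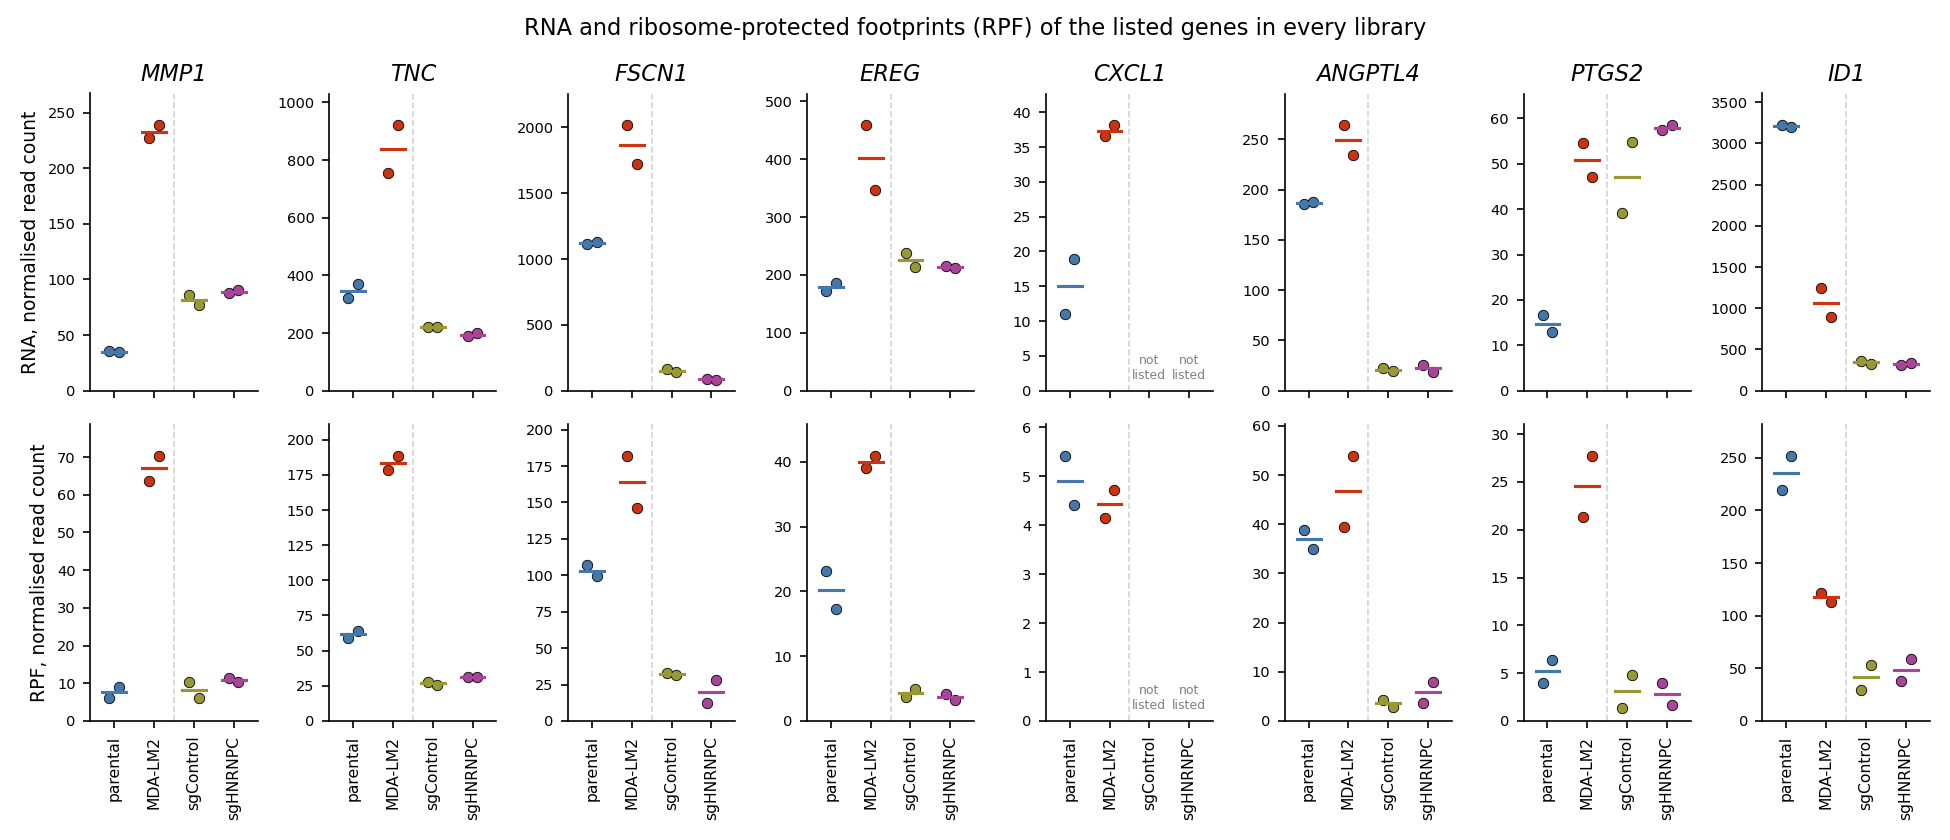
Normalised read counts of RNA (upper row) and RPF (lower row) of the 8 listed genes in each library. Points are the 2 replicates, bars their mean, and the dashed line separates the tables, which were normalised separately. In every gene but ID1 and CXCL1, both MDA-LM2 RNA and RPF values lay above both parental values.

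MMP1, the interstitial collagenase (chromosome 11, 102789919 to 102798160, hg38, minus strand, 10 exons), changed most. Its normalised RNA count was 35.4 and 35.0 in parental cells and 227 and 239 in MDA-LM2 cells. Both MDA-LM2 libraries were far above both parental ones, 6.62-fold in the mean. The log2 change was 2.69 ± 0.15 (standard error) with a limma adjusted p of 0.000142, and it ranked 11 of 8393 from the top. The RPF value was 6.11 and 9.08 in parental cells and 63.6 and 70.4 in MDA-LM2 cells. This log2 change was 3.0 ± 0.29 (standard error), limma adjusted p 1.23e-09. The collagenase RNA thus went from a level per kilobase above that of 14.5% of the listed transcripts to one above 62.7% (of those with a known length).

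TNC, a large glycoprotein of the matrix with 28 exons on chromosome 9 (115019575 to 115118157, minus strand), had RNA counts of 320 and 370 in parental and of 756 and 920 in MDA-LM2 cells. The lines did not overlap. Its log2 RNA change was 1.28 ± 0.14 (standard error), limma adjusted p 0.00194. RPF was 59.0 and 64.1 in parental and 178 and 189 in MDA-LM2 cells, a log2 change of 1.56 ± 0.14 (standard error) with a limma adjusted p of 2.58e-10. The tenascin C footprints were thus 2.98-fold higher in the mean, and its RNA 2.43-fold. SPARC, the other matricellular gene, and the adhesion gene VCAM1 have no values in these tables.

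FSCN1 (chromosome 7, 5592816 to 5606655, plus strand, 5 exons) was among the more abundant of the 8 genes. Its RNA was at 1114 and 1131 in parental and at 2016 and 1722 in MDA-LM2 cells, a log2 change of 0.73 ± 0.12 (standard error) with a limma adjusted p of 0.00928. The RNA call of fascin was lost without parental replicate 1 (log2 change 0.72, adjusted p 0.0787) and without parental replicate 2 (0.74, adjusted p 0.0565), fits in which the lone parental library is assumed to vary like the other groups. Its RPF was at 107 and 99.4 in parental and at 182 and 146 in MDA-LM2 cells. That log2 change, 0.66 ± 0.14 (standard error), had a limma adjusted p of 0.000942.

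Of the secreted ligands, EREG (chromosome 4, 74365145 to 74388749, plus strand) had RNA counts of 173 and 186 in parental and of 458.5 and 347 in MDA-LM2 cells. Its log2 change was 1.15 ± 0.16 (standard error), limma adjusted p 0.00488. RPF of EREG was 23.1 and 17.3 in parental and 39.0 and 41.0 in MDA-LM2 cells, a log2 change of 0.97 ± 0.26 (standard error) with a limma adjusted p of 0.0105. The footprint call of epiregulin was lost without parental replicate 2 (log2 change 0.77, adjusted p 0.063) or without MDA-LM2 replicate 2 (0.93, adjusted p 0.0828), and passed without either of the other libraries.

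CXCL1 lies on chromosome 4 (73869393 to 73871308, plus strand). Its RNA was at 11.1 and 19.0 in parental and at 36.6 and 38.1 in MDA-LM2 cells, which did not overlap. Its RPF was at 5.42 and 4.40 in parental and at 4.15 and 4.71 in MDA-LM2 cells, overlapping and too low for the test. With the filter applied to RNA alone, which tested 10772 transcripts, the chemokine passed with a log2 RNA change of 1.3 ± 0.32 (standard error) and a limma adjusted p of 0.0273. All 8 listed genes entered that fit, 6 were higher, and 6.73% of all its transcripts were called higher. CXCL1 mRNA closely resembles that of CXCL2 and CXCL3, so its reads may be shared with them.

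ANGPTL4 (chromosome 19, 8364155 to 8374370, plus strand) was the tested gene that passed neither test. Its RNA counts were 186 and 188 in parental and 264 and 234 in MDA-LM2 cells. The groups did not overlap, and the log2 difference was 0.41 ± 0.13 (standard error) with a limma adjusted p of 0.0756. This call depended on the setting, as the adjusted p was 0.0256 with libraries rescaled to equal totals and 0.00258 without MDA-LM2 replicate 2. Its RPF values of 38.9 and 34.9 in parental and 39.5 and 54.0 in MDA-LM2 cells gave a log2 difference of 0.32 with a 95% interval from -0.13 to 0.76.

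PTGS2, the inducible cyclooxygenase (chromosome 1, 186671791 to 186680423, minus strand), had the lowest RNA level per kilobase of the 8 genes. Its RNA count was 16.6 and 13 in parental and 54.5 and 47.0 in MDA-LM2 cells. The log2 change was 1.72 ± 0.26 (standard error), limma adjusted p 0.00718. RPF was 4.01 and 6.38 in parental and 21.3 and 27.7 in MDA-LM2 cells, with a log2 change of 2.06 ± 0.40 (standard error) and a limma adjusted p of 0.000498. Even in MDA-LM2 cells the RNA per kilobase of PTGS2 exceeded that of only 7.06% of the listed transcripts, while its RPF per coding kilobase exceeded that of 39.8%.

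ID1 (chromosome 20, 31605289 to 31606510, plus strand, 2 exons) was the only 1 of the 8 listed genes that was lower in MDA-LM2 cells in both RNA and RPF. Its RNA counts were 3219 and 3201 in parental and 1242 and 889 in MDA-LM2 cells. The MDA-LM2 mean was 33.2% of the parental mean, a log2 change of -1.61 ± 0.16 (standard error) with a limma adjusted p of 0.00144. Its RPF was at 219 and 252 in parental and at 122 and 113 in MDA-LM2 cells. The footprints were at 49.8% of the parental mean, a log2 change of -1.0 ± 0.12 (standard error) with a limma adjusted p of 2.98e-07.

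RNA of parental and MDA-LM2 cells did not overlap for any of the 7 tested genes, and neither did RPF. Such separation was common, since the replicates of the lines did not overlap for 62.1% of all tested transcripts in RNA and for 53.3% in RPF.

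**Figure D2:**
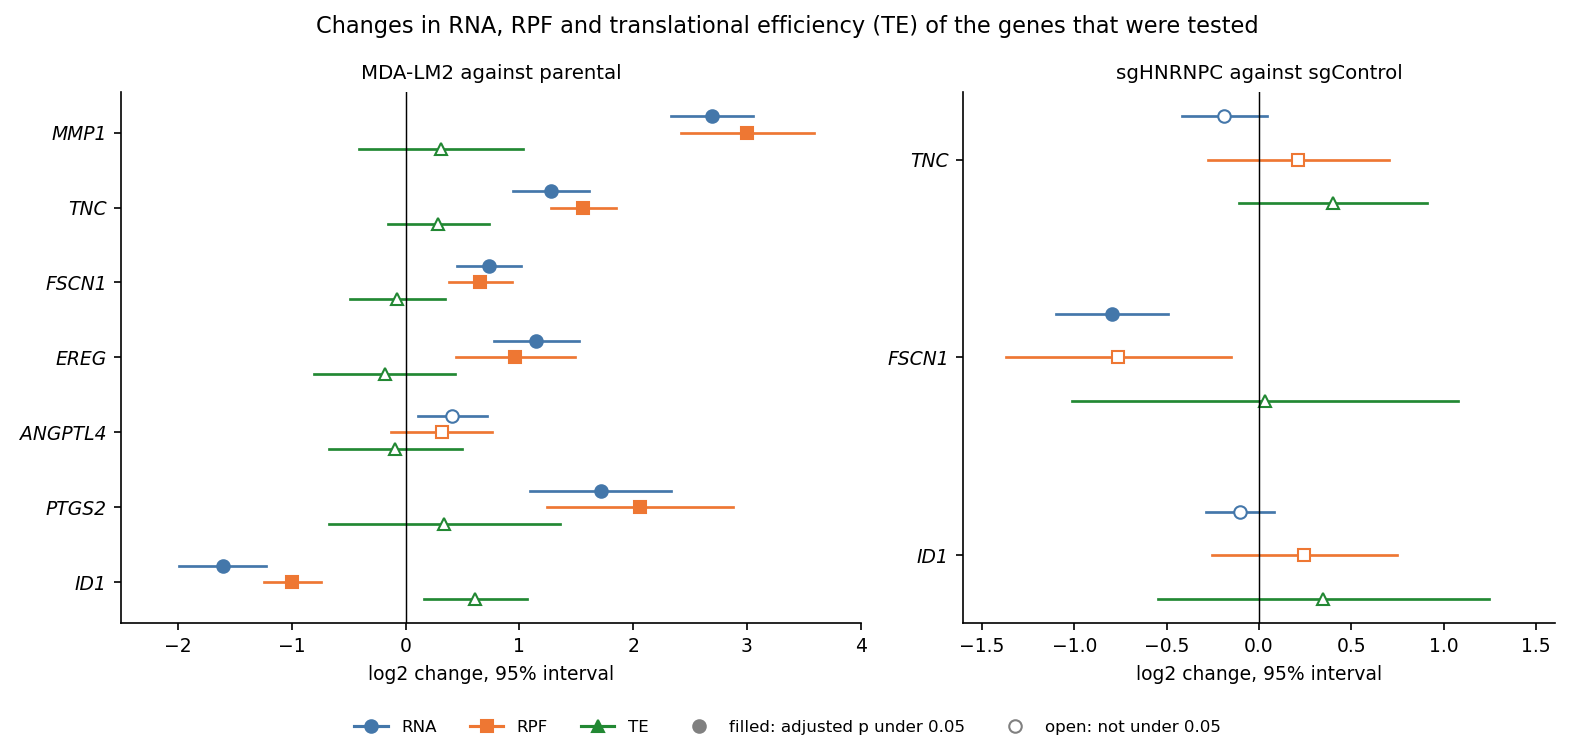
Log2 changes of RNA (circles), RPF (squares) and TE (triangles) with 95% intervals from limma, for MDA-LM2 against parental cells (left, 7 genes) and sgHNRNPC against sgControl (right, 3 genes). Filled symbols passed an adjusted p under 0.05. All TE symbols are open, and in the right panel only FSCN1 RNA is filled.

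The test of the TE change called 0 of the 7 genes, where it called 3 of 8393 transcripts (0.0357%), and 455 transcripts had an unadjusted p under 0.05. Logistic regression, as in the Ribolog tool of the study, called 1 of the 7. This was ID1, whose TE was 0.068 and 0.079 in parental and 0.098 and 0.127 in MDA-LM2 cells. The limma change of ID1 TE was 0.61 ± 0.21 (standard error) on the log2 scale, with an unadjusted p of 0.0121, a limma adjusted p of 0.89 and a 95% interval from 0.16 to 1.07. By logistic regression it was 0.59 with an adjusted p of 0.000249. That test counts each read as independent and leaves out the spread between replicates. So RPF of ID1 fell less than its RNA in value, and whether the TE change was called depended on the test. Only the limma fit sets it against the spread between replicates, and there it did not pass after adjustment.

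The TE differences of the other 6 tested genes lay between -0.18 and 0.34 on the log2 scale, and none passed the test. MMP1 had a TE of 0.173 and 0.260 in parental and of 0.280 and 0.295 in MDA-LM2 cells, a log2 difference of 0.31 (95% interval -0.41 to 1.03). PTGS2 gave 0.34 (-0.67 to 1.36) and TNC 0.29 (-0.16 to 0.73). EREG gave -0.18 (-0.80 to 0.44), ANGPTL4 -0.09 (-0.68 to 0.49) and FSCN1 -0.07 (-0.49 to 0.34). The intervals of these 6 genes all include 0, and their upper ends run from 0.34 for FSCN1 to 1.36 for PTGS2, so they do not show that TE was equal. For CXCL1 the TE was 0.490 and 0.232 in parental and 0.113 and 0.124 in MDA-LM2 cells. Without a filter on low values its log2 TE difference was -1.42 ± 0.57 (standard error), unadjusted p 0.0282 and limma adjusted p 0.841, on RPF values under 6.

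**Figure D3:**
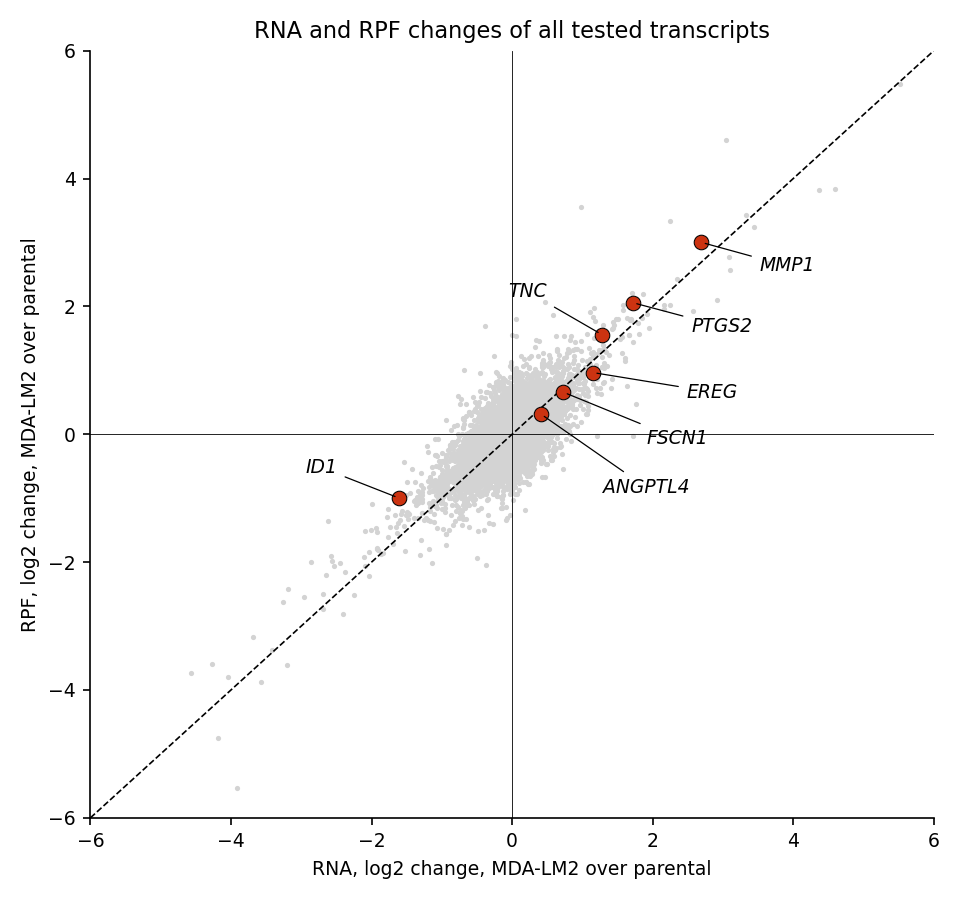
Log2 change in RNA (x axis) against log2 change in RPF (y axis), MDA-LM2 over parental, for the 8393 tested transcripts (grey) and the 7 tested genes (red). The dashed line marks equal change. MMP1 (2.69 and 3.0), PTGS2 and TNC lie above the line at the upper right, EREG, FSCN1 and ANGPTL4 lie close to it, and ID1 (-1.61 and -1.0) lies above it at the lower left.

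The levels themselves spanned a wide range. Per kilobase of transcript, RNA in parental cells ran in the order ID1 (3266), FSCN1 (403), ANGPTL4 (99.9), TNC (40.6), EREG (38.9), MMP1 (17.9), CXCL1 (12.8) and PTGS2 (3.28). Replicates of neighbours in that order overlapped only for TNC and EREG. In MDA-LM2 cells the order was ID1 (1084), FSCN1 (671), ANGPTL4 (133), MMP1 (118), TNC (98.6), EREG (87.2), CXCL1 (31.8) and PTGS2 (11.3), again with TNC and EREG overlapping. MMP1 had moved up past both. ID1, although lower in MDA-LM2, was still the most abundant of the genes in both lines.

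The footprint density did not follow the RNA order. RPF per coding kilobase over RNA per kilobase, a TE corrected for the long untranslated parts of some of these mRNAs, was 1.02 for EREG and 0.873 for PTGS2 in parental cells, above 92.8% and 90.01% of the tested transcripts. In MDA-LM2 cells these ratios were 0.904 and 1.20, above 91.5% and 95.3%. The parental ratio of PTGS2 rests on RPF values of 4.01 and 6.38, with uncorrected TE of 0.241 and 0.491. With an RNA mean of 32.8 over both lines, PTGS2 could reach the minimum RPF mean of 10 only with a high ratio. Its place among the tested transcripts thus partly follows from the filter. ID1 had the lowest of the 8 in parental cells, 0.155 (above 29.7%), and FSCN1 the lowest in MDA-LM2 cells, 0.165 (above 30.2%). MMP1 was at 0.302 and 0.403, TNC at 0.230 and 0.282 and ANGPTL4 at 0.303 and 0.288 in parental and MDA-LM2 cells. CXCL1, on its low counts, was at 1.20 and 0.434 (above 94.7% and 70.7%). In the knockdown table FSCN1 was at 0.401 in sgControl and 0.437 in sgHNRNPC cells, above 96.2% of the tested transcripts in both. On low RPF counts, EREG there stood above 77.1% in sgControl and 70.1% in sgHNRNPC cells. PTGS2 stood above 74.5% and 54.7%. EREG and PTGS2 are the listed genes with the longest 3′ UTRs, of 3941 and 2562 bases against a median of 1167 in the MDA-LM2 table. The ratio uses these annotated lengths, and the 3′ UTR length in use in the cells was not measured here.

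The knockdown comparison asks whether lower HNRNPC changes these genes in MDA-MB-231 cells. FSCN1 was the single gene that passed a test. Only TNC, ID1 and FSCN1 reached the minimum mean of 10 in both kinds of library, so 3 of the 7 listed genes were tested, among 4283 transcripts. RNA of 1 of 3 was lower and of 0 higher, where 11.3% of all tested transcripts were called lower and 4.72% higher. RPF of 0 of 3 was called, against 0.0233% of transcripts (1 of 4283, with 329 at an unadjusted p under 0.05). TE of 0 of 3 was called, against 0.0% (0 of 4283 by limma, with 332 at an unadjusted p under 0.05 and 11 by logistic regression). The median log2 RNA change of the 3 was -0.19, beside -0.04 over all.

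FSCN1 RNA was at 161 and 141 in sgControl and at 91.0 and 81.9 in sgHNRNPC. The knockdown libraries were both below the control libraries, at 57.3% of the mean. The log2 change was -0.80 ± 0.15 (standard error), limma adjusted p 4.05e-05, and only 0.14% of the tested transcripts had a lower value. Its RPF was at 33.0 and 31.2 in sgControl and at 12.1 and 28 in sgHNRNPC, a log2 difference of -0.76 ± 0.30 (standard error) with a limma adjusted p of 0.545. The sgHNRNPC replicates of fascin RPF disagreed, with a log2 difference of -0.19 (adjusted p 0.80) without replicate 1 and of -1.33 (adjusted p 0.00852) without replicate 2 of sgHNRNPC. Its TE was 0.205 and 0.222 in sgControl and 0.133 and 0.342 in sgHNRNPC, a log2 difference of 0.03 (95% interval -1.01 to 1.08). Fascin RNA thus had a log2 change of 0.73 in MDA-LM2 against parental cells and of -0.80 in sgHNRNPC against sgControl cells. The difference between these comparisons was not tested, as the tables were normalised separately.

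TNC RNA was at 221 in both sgControl libraries and at 188 and 201 in sgHNRNPC. Its log2 difference was -0.19 ± 0.12 (standard error), limma adjusted p 0.298. RPF of TNC was at 27.8 and 25.9 in sgControl and at 30.9 and 31.6 in sgHNRNPC, a log2 difference of 0.21 (95% interval -0.28 to 0.70). The TE of TNC was 0.126 and 0.117 in sgControl and 0.164 and 0.157 in sgHNRNPC, which gave a log2 difference of 0.40 (-0.11 to 0.91), limma adjusted p 0.647. TNC carries the C followed by 6 U printed above at 2 places of its 3′ UTR. Of the annotated 3′ UTRs of the knockdown table, 43.2% hold these letters. Binding of HNRNPC to TNC was not tested.

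ID1 RNA was at 357 and 328 in sgControl and at 306 and 332 in sgHNRNPC, which overlapped, with a log2 difference of -0.10 (95% interval -0.29 to 0.08). Its RPF values of 29.2 and 53.6 in sgControl and 37.8 and 58.6 in sgHNRNPC also overlapped. A change of ID1, which fell in MDA-LM2 cells, was thus not detectable after the knockdown beyond that interval.

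The other 4 listed genes had RPF means below 10 in this table. With the filter applied to RNA alone (8961 transcripts), all 7 listed genes were fitted and FSCN1 was the 1 that passed, against 6.6% of transcripts called lower. MMP1 RNA was at 85.8 and 76.6 in sgControl and at 87.4 and 90.7 in sgHNRNPC, a log2 difference of 0.13 (95% interval -0.21 to 0.48). PTGS2 RNA, at 39.2 and 54.8 in sgControl and at 57.4 and 58.5 in sgHNRNPC, gave 0.32 (-0.13 to 0.76). EREG RNA, at 237 and 214 in sgControl and at 215.5 and 212.5 in sgHNRNPC, gave -0.08 (-0.29 to 0.14). ANGPTL4 RNA, at 22.3 and 19.7 in sgControl and at 25.6 and 18.5 in sgHNRNPC, gave 0.06 (-0.60 to 0.71). These 4 differences had intervals that include 0. RPF of these 4 genes ranged from 1.40 to 11.4 over the 4 libraries, too low to compare.

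**Figure D4:**
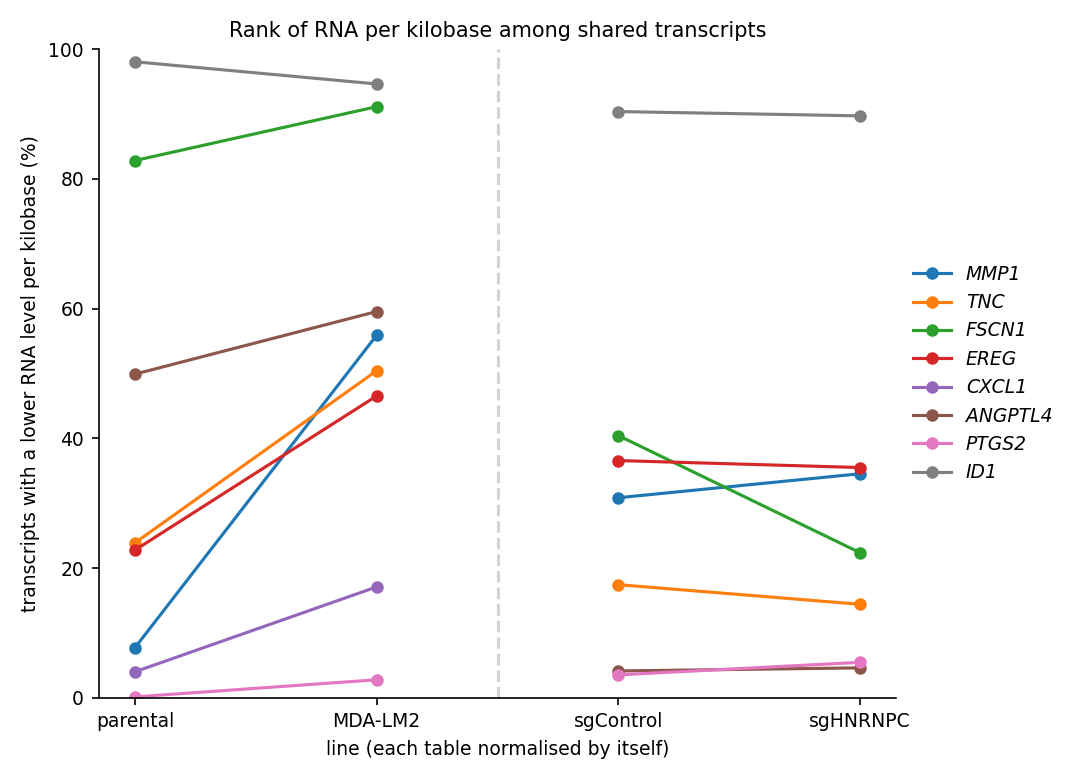
Share of the 8764 transcripts listed in both tables, with a length, that had a lower RNA level per kilobase (y axis, %) than each gene in each line (x axis). Lines join the cells of 1 table. MMP1 goes from 7.72% in parental to 55.9% in MDA-LM2 cells, FSCN1 from 40.4% in sgControl to 22.4% in sgHNRNPC cells, and ANGPTL4 is at 49.9% in parental but at 4.14% in sgControl cells.

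The control lines of the tables are both MDA-MB-231 cells, yet the genes held different places in them. As each table has its own scale, the place of a gene among the 8764 transcripts common to the tables is given as a description, with no test. ANGPTL4 RNA per kilobase stood above 49.9% of them in parental and above 4.14% in sgControl cells. FSCN1 stood above 82.8% in parental and 40.4% in sgControl cells, and ID1 above 98.1% and 90.4%. MMP1 went the other way, 7.72% in parental and 30.9% in sgControl cells, as did EREG (22.8% and 36.6%) and PTGS2 (0.148% and 3.54%). TNC stood at 23.9% and 17.4%. What the lines' separate culture, the dCas9-KRAB repressor, puromycin and separate sequencing contributed cannot be told apart. Per kilobase in sgControl cells the order was ID1 (348), FSCN1 (54.2), EREG (48.9), MMP1 (41.2), TNC (26.1), ANGPTL4 (11.2) and PTGS2 (10.4), with FSCN1 and EREG overlapping, and ANGPTL4 and PTGS2 too. In sgHNRNPC cells it was ID1 (325), EREG (46.4), MMP1 (45.2), FSCN1 (31.0), TNC (22.9), PTGS2 (12.8) and ANGPTL4 (11.8), with PTGS2 and ANGPTL4 overlapping.

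Relatives of these genes were examined through 10 lists of families and pathways. They hold 105 genes beside the 10, of which 49 were tested in the MDA-LM2 comparison. RNA of 8 was higher (16.3%, beside 5.8% of all transcripts) and of 12 lower (24.5%, beside 9.44%), with a median log2 RNA change of 0.06. RPF of 10 was higher (20.4%, beside 5.0%) and of 11 lower (22.4%, beside 7.03%). No relative called here or below changed direction with libraries rescaled to equal totals or by quantile normalisation. Of those called lower in RNA, the adjusted p of TGFA was 0.0755 and that of TIMP3 0.0541 with equal totals by limma, and by quantile normalisation that of TIMP3 was 0.053 and that of NDRG1 0.0551.

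Epiregulin rose while the RNA of 3 sister ligands fell. AREG (amphiregulin), which binds the same receptor, went from an RNA count of 296 ± 26.8 (SD, n = 2) to 72.5 ± 19.7 (SD, n = 2) in MDA-LM2 cells. This was a log2 change of -2.04 ± 0.20 (standard error) with a limma adjusted p of 0.00134, and its RPF changed by -1.84 (adjusted p 3.59e-05). NRG1 RNA changed by -0.86 (adjusted p 0.00776) and its RPF by -1.11 (adjusted p 0.00418), and TGFA RNA changed by -0.63 (adjusted p 0.0324) with an RPF difference of -0.31 that did not pass (adjusted p 0.682), all by limma. HBEGF, the remaining tested ligand, named after its values were seen, had an RNA difference of 0.41 (limma adjusted p 0.0985, or 0.027 with equal totals). Of the 7 tested genes of the family, 1 was higher and 3 were lower in RNA (5.8% and 9.44% of all transcripts), and 1 was higher and 2 were lower in RPF (5.0% and 7.03%). The receptors tested, EGFR and ERBB2, passed neither the RNA nor the RPF test.

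Both tested inhibitors of DNA binding, ID1 and ID3, fell. Of the 5 tested genes of their list, 2 were lower in RNA (9.44% of all transcripts) and 1 was higher (5.8%). RPF gave the same counts, beside 7.03% and 5.0%. ID3 went from an RNA count of 800 ± 75.6 (SD, n = 2) in parental to 127 ± 43.9 (SD, n = 2) in MDA-LM2 cells, with a log2 change of -2.69 ± 0.23 (standard error), limma adjusted p 0.000675. Its RPF changed by -2.5 ± 0.23 (standard error), limma adjusted p 4.2e-10.

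CXCL8, the neutrophil chemokine that shares the receptors of CXCL1, was the sole tested gene of that list and rose in RNA from 23.5 ± 3.49 to 59.1 ± 10.8 (SD, n = 2), log2 change 1.29 (limma adjusted p 0.0164). Its RPF rose from 5.45 to 20.1, log2 change 1.71 (limma adjusted p 0.00434), and like PTGS2 it reached the minimum RPF mean through MDA-LM2 cells. Of 5 tested prostaglandin genes, 1 was higher in RNA and 2 in RPF, beside 5.8% and 5.0% of all transcripts, and 0 were lower. PTGES, the synthase that acts after PTGS2, rose in RPF (log2 change 0.71, limma adjusted p 0.00195), with an RNA difference of 0.45 that did not pass (adjusted p 0.0703). The list of the missing VCAM1 had 5 tested genes, of which 1 was higher in RNA and 2 in RPF, and 0 were lower. There the adhesion molecule ICAM1 rose in RNA (0.59, adjusted p 0.0183) and RPF (0.64, limma adjusted p 0.00769). ALCAM, another adhesion molecule, rose in RPF (0.34, adjusted p 0.0406), and its RNA difference of 0.37 had a limma adjusted p of 0.0626.

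Of 6 tested metalloproteinases and inhibitors, 2 were higher and 1 lower in RNA, beside 5.8% and 9.44% of all transcripts. TIMP1, an inhibitor of MMP1, rose (log2 RNA change 0.80, limma adjusted p 0.0309) and TIMP3 fell (-0.65, adjusted p 0.0191). Of 6 tested matricellular genes, TNC was higher and THBS1 (thrombospondin) lower, with a log2 RNA change of -0.95 and a limma adjusted p of 0.00348. Of 7 tested genes on the list of ANGPTL4, 2 were higher and 2 lower in RNA. In RPF, 1 was higher and 3 were lower, beside 5.0% and 7.03% of all transcripts. By limma, the hypoxia-responsive genes ADM (RNA 1.64, adjusted p 0.00112) and VEGFA (0.73, adjusted p 0.00945) rose. NDRG1 (-0.51, adjusted p 0.0347) and BNIP3 (-0.65, adjusted p 0.0176), named here after their values were seen, fell in RNA by limma. PDK1 fell in RPF (-1.50, limma adjusted p 0.0183). The RPF means of PDK1 were 18.6 in parental and 6.23 in MDA-LM2 cells, so it reached the minimum through the parental libraries. Of 6 tested actin bundlers, 2 were higher and 0 lower in RNA, and 3 were higher and 1 lower in RPF. Among them, LCP1 (plastin of leukocytes) rose from an RNA count of 14.1 ± 1.20 to 152 ± 13.8 (SD, n = 2), log2 change 3.33 and limma adjusted p 0.000217. It had a parental RPF mean of 3.78, below the minimum of 10. ACTN1 rose (0.40, adjusted p 0.00166) and ACTN4 fell (-0.38, adjusted p 0.00119) in RPF alone, though by quantile normalisation the RPF difference of ACTN4 was -0.09 with a limma adjusted p of 0.514.

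The last list holds 14 other genes linked to lung metastasis of this line, 8 of them tested. It does not separate genes by the direction of that link, so its counts and median carry no expected direction. RNA of 1 was higher and of 4 lower (5.8% and 9.44% of all transcripts), and the median log2 RNA change was -0.56, beside -0.02 over all. KYNU, an enzyme of tryptophan breakdown, was the 1 relative among 49 called in TE, with a log2 change of 2.56 ± 0.37 (standard error) and a limma adjusted p of 0.0449, on RPF means of 2.36 in parental and 38.2 in MDA-LM2 cells. It thus reached the minimum through MDA-LM2 cells alone, and its TE call was lost with equal totals, with quantile normalisation, with no filter and with TE taken within each lysate, settings in which 0 transcripts were called. KRT81 RNA fell by 1.39 (limma adjusted p 0.00148), although its reads may be shared with near-identical keratin genes, and ADIRF RNA fell by 1.08 (limma adjusted p 0.00127). MERTK (-0.67, adjusted p 0.0207) and SOX4 (-0.68, adjusted p 0.0294), named after their values were seen, were the other lower genes by limma.

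After the knockdown, RNA of 13 of 33 tested relatives was lower (39.4%, beside 11.3% of all) and of 3 higher (9.09%, beside 4.72%), and none was called in RPF or TE. Lower calls made up a larger share of abundant transcripts, 160 of 669 with a minimum mean of 50. The relatives were not compared with transcripts of like abundance. With quantile normalisation, which moved the higher share of all RNA calls from 29.5% to 47.5% (21.5% with equal totals), FN1, PLS3, ACTN1, ALCAM, LTBP1 and TIMP3 no longer passed, and with equal totals EGFR did not. CCN2 and CCN1, matricellular proteins, changed by -0.51 (adjusted p 1.04e-08) and -0.41 (limma adjusted p 2.56e-11), and FN1 by -0.20 (adjusted p 0.00947). Beside FSCN1, the actin bundlers ACTN4 (-0.22, adjusted p 4.09e-05), PLS3 (-0.18, adjusted p 0.00646) and ACTN1 (-0.13, adjusted p 0.0334) fell, so FSCN1 had the largest RNA change of the 5 bundlers tested. VEGFA rose (0.41, adjusted p 0.00373), as did KRT81 (0.34, adjusted p 0.000658) and EGFR (0.15, adjusted p 0.012), and SOX4 (-0.37, adjusted p 0.000338), MMP14 (-0.27, adjusted p 0.000112), NDRG1 (-0.24, adjusted p 0.000173), LTBP1 (-0.22, adjusted p 0.0442), ALCAM (-0.16, adjusted p 0.0276) and TIMP3 (-0.13, adjusted p 0.0242) fell, by limma.

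Over the 4 log2 changes of RNA and RPF in the 2 comparisons, the transcript nearest to TNC among 4280 tested in both tables was POLG (distance 0.376), and that nearest to FSCN1 was HELLS (0.439). The nearest to ID1 was a transcript without a matched symbol, at a distance of 0.206.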

How the data were processed

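The 4 lines each had 2 RPF and 2 RNA libraries. By the study's methods, adapters were trimmed with cutadapt, duplicate molecules were collapsed by their identifiers, and RPF reads were aligned with Bowtie2 against the longest coding isoform of each gene, after removal of rRNA and tRNA. The values used here are the signal columns that the authors deposited, normalised by the authors within each kind of library. By the study's methods, RPF counts could first be corrected for local ribosome stalling. Whether the deposited RPF values were so corrected was not tested, and they may not be plain scaled read counts. The RPF depth in reads is thus unknown and intervals rest on replicates alone. The submitters' processing notes name hg38. Transcript identifiers were matched to symbols with GENCODE version 44.

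The 10 genes, the lists of relatives and the tests were chosen with earlier results of these data known. Values of transcripts whose mean reached 10 in RPF and also in RNA were fitted on log2(value + 1) with limma 3.58.1 in R 4.3.3 (eBayes with trend), each table by itself. The TE change was the interaction of library kind and line. Benjamini-Hochberg adjusted p-values below 0.05 over all tested transcripts were called. The 10 genes were named whatever their values. Up to 3 relatives per list and comparison were named, those with the largest log2 change that passed the RNA or RPF test, and the transcript nearest to TNC, ID1 and FSCN1 by Euclidean distance over 4 log2 changes. p-values measure the spread between these duplicates. The fit was tested on simulated data. Alternatives were the added value, the filter, the scaling, a replicate block, logistic regression and leaving out each replicate. Figures and summaries used Python 3.11.15, pandas 2.3.3 and matplotlib 3.10.9. A result among the relatives is not reported here by name, though the counts include it.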

Additional observations from a re-analysis of the deposited data

How the results depend on the processing

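Over the alternatives, 330 results for the genes kept their direction and side of the threshold, 11 reversed, 4 gained and 4 lost the call. No RNA or RPF change in MDA-LM2 cells reversed. With a minimum mean of 50, fewer genes were tested, and 3 of 3 were called for RNA and 3 of 3 for RPF, while in the knockdown table none was left to test. Logistic regression called 1 gene, ID1, for TE in MDA-LM2 cells. Without each replicate in turn, 5 to 7 genes were called for RNA, 5 to 6 for RPF and 0 for TE in MDA-LM2 cells, and 1 for RNA, 0 to 1 for RPF and 0 for TE in the knockdown.

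Log2 differences turned direction for MMP1 TE (-0.042 with an added value of 5) and, in the knockdown table, FSCN1 TE (-0.030 by quantile normalisation). Without each replicate in turn, the MDA-LM2 TE difference of PTGS2 lay between -0.10 and 0.79, that of EREG between -0.44 and 0.068 and that of ANGPTL4 between -0.40 and 0.22, and in the knockdown ID1 RPF lay between -0.18 and 0.67, ID1 TE between -0.14 and 0.84 and FSCN1 TE between -0.61 and 0.68. The cause was not tested.

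Counts over all transcripts moved more. RNA calls in MDA-LM2 cells numbered 1279, against 440 with a minimum mean of 50 and 492 to 4235 without a replicate, and RPF calls 1010, against 641 without MDA-LM2 replicate 2. TE calls were 3, against 0 with equal totals, quantile normalisation, no filter on low values or TE within each lysate, 0 to 7 without a replicate and 181 by logistic regression. Knockdown RNA calls were 684, against 228 with a minimum mean of 50 and 371 to 569 without a replicate. Knockdown RPF calls were 1, against 0 to 41 without a replicate, and TE calls 0, against 11 by logistic regression.

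With the replicate block, members called stayed at 6 for RNA, 6 for RPF and 0 for TE in MDA-LM2 cells and at 1, 0 and 0 in the knockdown, while all RNA calls in MDA-LM2 cells became 1775, RPF calls 1300 and knockdown RPF calls 12. Deviations of same-numbered libraries correlated at 0.23 between MDA-LM2 RNA and parental RNA and at 0.14 between MDA-LM2 RNA and MDA-LM2 RPF. In all other pairs, and in every pair of the knockdown table, the correlation was below 0.1. What libraries of the same number share beyond the lysate was not tested. TE taken within each lysate, an alternative chosen after seeing the data, called 0 genes. RNA values were whole multiples of 1 step per library for 100.0% of transcripts (tolerance 0.01 of a step), but the RPF values gave no such step, and the planned count test on RNA reads was not run.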
